A study of Mus musculus with 12 samples.

Results

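The Hox genes are the 39 protein-coding genes of the mouse HoxA, HoxB, HoxC and HoxD clusters, taken here as every row of the count table whose symbol is Hox, a cluster letter from a to d and a paralog number. They were 39 of 49315 genes in the table, with 11 members in HoxA, 10 in HoxB, 9 in HoxC and 9 in HoxD. Their levels were measured by bulk RNA sequencing of dorsal root ganglia (DRG), the clusters of sensory neurons beside the spinal cord, in 12 mice aged 10 months. Of these mice, 6 carried Postn-Cre(+) with Nf2 flox/flox (Nf2 mice) and 6 carried Postn-Cre(+) with Nf2 flox/flox and Fak1 flox/flox (DKO mice). Each genotype was split by labelled sex into 3 males and 3 females. Both genotypes therefore carried the Cre and the floxed Nf2 alleles, and they differed in the floxed alleles of focal adhesion kinase, the gene annotated as Ptk2. The Periostin promoter drives the Cre in Schwann cells and their precursors, so the neurons and the other cells of a ganglion were not the intended target of the deletion. About 8 ganglia of a mouse went into its single library, and the segmental level from which they were taken is not in the labels. No mice without the Cre are compared here.

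Hox genes encode homeodomain transcription factors that give cells of the embryo their position along the body axis. Their order on the chromosome matches the order of their anterior limits of expression, a property called collinearity, so that genes with low paralog numbers reach the hindbrain and genes with high numbers are confined to the tail end of the trunk. Neurons, glia and fibroblasts can keep such a code into adult life. In the spinal nerves, paralogs 4 to 8 are typical of cervical and upper trunk levels, paralog 9 of thoracic levels and paralogs 10 and 11 of lumbar and sacral levels. A level in whole ganglia does not tell fewer cells of a type apart from less RNA per cell.

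On the GRCm38 genome, HoxA lay at chr6:52155590-52260880, HoxB at chr11:96194316-96368256, HoxC at chr15:102921103-103036852 and HoxD at chr2:74668310-74765142, in spans of 96.8 to 173.9 kb. Within each cluster the exons of neighbouring genes and of noncoding RNAs can overlap. Of the 39 members, 23 shared no exon base with another gene and 6 shared more than 25% (Hoxa3, Hoxa11, Hoxb2, Hoxb3, Hoxd3 and Hoxd4). The partners of Hoxa11, Hoxb2 and Hoxb3 lie on the opposite strand, so their reads cannot be told apart where the counting did not use strand. Hoxd3 and Hoxd4 shared 62.3% and 52.3% of their exon bases on the same strand, and Hoxa3 8.0%, where strand would not separate the reads either.

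The HoxD genes Hoxd8 to Hoxd11 lie side by side on the plus strand and ran from the most even to the least even level between mice within HoxD, so their upstream sequences are shown. Each window covers the 200 bases from 250 to 51 bases before a RefSeq transcript start (GRCm38.p6), and capitals mark CG dinucleotides. The windows lie at chr2:74704365-74704564, chr2:74697513-74697712, chr2:74691641-74691840 and chr2:74682073-74682272 in that order. None touched an annotated UTR or coding base, and 74 bases of the Hoxd9 window lay in an exon of the noncoding RNA Gm28793.
Hoxd8: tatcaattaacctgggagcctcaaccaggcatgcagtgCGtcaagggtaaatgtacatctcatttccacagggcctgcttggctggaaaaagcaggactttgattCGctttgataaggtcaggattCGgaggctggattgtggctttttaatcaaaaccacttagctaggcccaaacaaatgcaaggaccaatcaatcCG
Hoxd9: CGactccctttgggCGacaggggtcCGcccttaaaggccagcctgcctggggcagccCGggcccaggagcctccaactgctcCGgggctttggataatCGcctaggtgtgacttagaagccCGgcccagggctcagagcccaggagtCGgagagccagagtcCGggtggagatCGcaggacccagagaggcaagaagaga
Hoxd10: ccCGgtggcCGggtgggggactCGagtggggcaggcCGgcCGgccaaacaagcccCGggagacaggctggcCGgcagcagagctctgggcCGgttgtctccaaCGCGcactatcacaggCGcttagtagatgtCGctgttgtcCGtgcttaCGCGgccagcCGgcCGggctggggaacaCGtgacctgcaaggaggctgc
Hoxd11: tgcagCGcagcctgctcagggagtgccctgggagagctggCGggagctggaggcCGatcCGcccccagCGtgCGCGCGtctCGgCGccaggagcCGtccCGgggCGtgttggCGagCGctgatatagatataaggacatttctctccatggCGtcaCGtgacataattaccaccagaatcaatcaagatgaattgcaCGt
The Hoxd8 window held 4 CG dinucleotides, equal to the median of 4 over 32851 promoter windows of the same length, and its GC content was 46.5% against a median of 51.5%. The Hoxd9 window held 10, and the Hoxd10 and Hoxd11 windows held 18 each, a number that 12.4% of all windows reached. The letters TTTATG and TTTACG, which posterior Hox and Cdx proteins can bind, were searched on both strands and matched in none of the 4 windows, while 8.78% and 2.05% of all windows held them. The letters TGATTNAT, which Hox and Pbx proteins can bind together, matched once in the Hoxd11 window, near its downstream end, against 2.34% of all windows. No match of 1 motif overlapped another. These matches describe letters only, and RefSeq windows were present for 22 of the 39 genes.

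The libraries held 21129191 to 41250329 counts, and Hox genes took 0.0245% to 0.0338% of them. Levels are given as CPM, the count of a gene scaled to the same total in every library. The sensory neuron markers Avil (572 to 709 CPM) and Isl1 (57.4 to 101 CPM) were present in every mouse, and so were those of Schwann cells. The 12 skeletal muscle markers summed to 52.8 to 1030 CPM in Nf2 mice and 62.6 to 368 CPM in DKO mice. The lowest sums were mostly Pvalb, which gave 39.2 CPM in Nf2 mouse 702 and 44.0 CPM in DKO mouse 886. Pvalb stayed at 38.8 to 80.9 CPM in Nf2 and 41.2 to 60.8 CPM in DKO mice, so the sum does not approach 0 where the other markers are low. In mouse 702 each other marker was at most 2.55 CPM. Acta1 and Myh1 were at 2.14 and 1.28 CPM there, against 141 and 197 CPM in Nf2 mouse 918. The 8 spinal cord neuron markers summed to 4.51 to 24.0 CPM in Nf2 mice and 3.15 to 36.1 CPM in DKO mice. Of these, Slc5a7, Slc32a1, Slc6a5 and Pax2 had reads in all 12 mice. Mnx1 and Lhx5 were at 0 counts in 5 mice each, Chat in 3 and Slc18a3 in 2. Ptk2, measured over the whole gene, had a median of 70.1 CPM in Nf2 and 66.8 CPM in DKO mice, and it did not differ beyond the spread between mice (log2 fold change −0.15 ± 0.10, edgeR adjusted p = 0.529). The counts span the whole transcript and pool all cells of the ganglion, those not targeted by the Cre included, so this does not check the deletion. Mouse 702, labelled male, had 496 CPM of Xist and 0.525 CPM of Ddx3y, within the ranges of the 6 females, and each value that uses sex is therefore by label.

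Paralogs from 1 to 11 were expressed in the adult ganglia, and paralogs 12 and 13 were not detectable or close to it. Reads were found in all 12 mice for 32 members, and the same number, 32, passed the filter on low counts. The other 7 were Hoxb1, Hoxa13, Hoxb13, Hoxc12, Hoxc13, Hoxd12 and Hoxd13, of which Hoxc12 had 52 reads in all, Hoxc13 had 51 and each of the others at most 6. Hoxd12 had no read in any mouse, which at these totals allows up to 0.142 CPM in the shallowest library, a limit that covers counting error only.

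**Figure D1:**
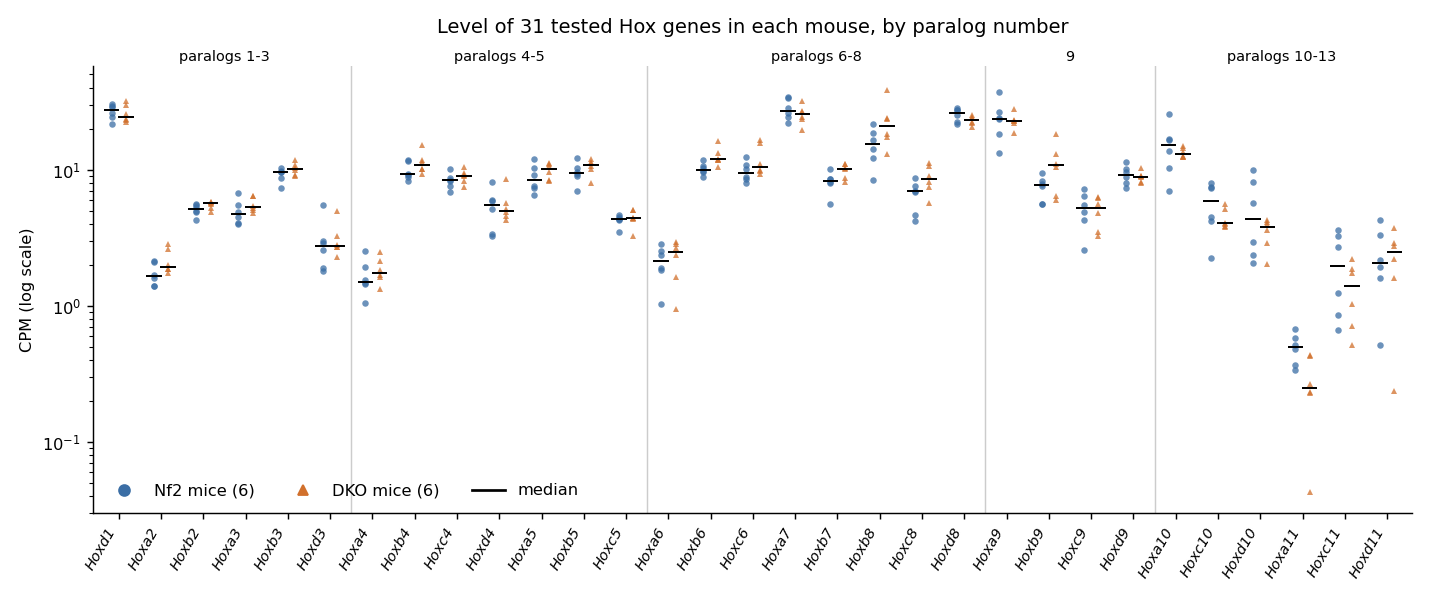
Level of 31 of the 32 tested Hox genes in the 12 mice, in CPM on a log scale, ordered by paralog number and grouped in 5 classes; points are mice, circles Nf2 and triangles DKO, and bars are medians. Most genes of paralogs 1 to 8 keep their points close together, and the points of Hoxc10, Hoxd10, Hoxc11 and Hoxd11 spread widely, Hoxd11 from 0.237 to 4.22 CPM.

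Per length of exon, levels were highest in paralogs 6 to 8. The median over the genes of a class was 0.979 CPM per kb of exon for paralogs 1 to 3, 3.36 for paralogs 4 and 5, 5.80 for paralogs 6 to 8, 3.86 for paralog 9 and 0.161 for paralogs 10 to 13, where 6 of the 12 genes were not tested for low counts. Within that last class the median was 2.62 for the 3 paralog 10 genes and 0.537 for the 3 paralog 11 genes, so paralog 10 lay above paralogs 1 to 3. Paralogs 6 to 8, the trunk genes, also summed to the most RNA, 110.6 CPM averaged over the mice. The genes of a class were not alike, since Hoxd1 reached 14.1 CPM per kb and Hoxb2, in the same class, 1.52.

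Among paralogs 1 to 3, which pattern the hindbrain and upper neck, Hoxd1 stood apart. Hoxd1, known in mammals for its role in pain-sensing neurons, ran from 21.5 through a median of 27.4 to 30.1 CPM in Nf2 mice. In DKO mice it ran from 22.3 through 24.4 to 31.7 CPM, so the genotypes covered the same range. Hoxb3 lay between 7.33 and 10.2 CPM (median 9.66) in Nf2 mice and between 8.99 and 11.7 CPM (median 10.1) in DKO mice. Hoxb2, a hindbrain gene of rhombomere patterning, had the smallest ratio of highest to lowest mouse of all 32 tested members, at 4.28 to 5.54 CPM (median 5.15) in Nf2 and 4.90 to 5.82 CPM (median 5.66) in DKO mice. That ratio was 1.36. Hoxb2 and Hoxb3 share 27.3% and 52.9% of their exon bases with the antisense RNA Hoxb3os.

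Paralogs 4 and 5 belong to neck and forelimb levels, and their 7 genes were all tested. Hoxb4 ran from 8.25 through 9.23 to 11.8 CPM in Nf2 mice and from 9.31 through 10.8 to 15.2 CPM in DKO mice. Hoxb5 ran from 6.97 through 9.49 to 12.3 CPM in Nf2 mice and from 7.95 through 10.9 to 12.0 CPM in DKO mice. Hoxa5, which in the cervical cord is needed for the motor neurons of the diaphragm, ran from 6.46 through 8.31 to 12.0 CPM in Nf2 mice and from 8.27 through 10.0 to 11.2 CPM in DKO mice. In each of the 3 genes the ranges of the genotypes overlapped, and the estimates of all 7 genes of this class lay above 0, by 0.04 to 0.19 on the log2 scale.

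Paralogs 6 to 8 are among the genes of cervical and upper trunk levels. Hoxa7 ran from 21.9 through 27.0 to 34.0 CPM in Nf2 mice and from 19.7 through 25.5 to 31.7 CPM in DKO mice. Hoxd8 was nearly as even as Hoxb2, from 21.5 through 26.2 to 28.4 CPM in Nf2 mice and from 20.4 through 23.3 to 25.1 CPM in DKO mice. Hoxb8, which acts in the dorsal spinal cord and in a lineage of microglia, ran from 8.32 through 15.4 to 21.5 CPM in Nf2 mice and from 13.1 through 20.7 to 38.2 CPM in DKO mice. Hoxb8 varied 4.59-fold between its lowest and highest mouse and Hoxd8, of the same paralog group, 1.39-fold.

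Among the paralog 9 genes, which set thoracic identity in the cord, Hoxa9 was the highest by CPM, from 13.2 through 23.6 to 37.3 CPM in Nf2 mice and from 18.6 through 22.7 to 27.8 CPM in DKO mice. Hoxd9 ran from 7.35 through 9.19 to 11.3 CPM in Nf2 mice and from 8.03 through 8.83 to 10.3 CPM in DKO mice. Hoxb9 ran from 5.62 through 7.70 to 9.46 CPM in Nf2 mice and from 5.96 through 10.7 to 18.3 CPM in DKO mice. The narrow range of Hoxd9 and the wide one of Hoxb9 came from the same ganglia, and per length the 2 genes were close, at 4.22 and 3.54 CPM per kb.

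Paralogs 10 and 11 are the lumbar and sacral genes, and over all 12 mice they were the least even of the detected classes. Hoxa10 ran from 6.94 through 15.0 to 25.8 CPM in Nf2 mice and from 12.4 through 13.02 to 15.0 CPM in DKO mice. Hoxc10, which with Hoxd10 helps to specify lumbar motor neurons, ran from 2.22 through 5.89 to 8.01 CPM in Nf2 mice and from 3.79 through 4.03 to 5.57 CPM in DKO mice. Hoxd10 ran from 2.05 through 4.32 to 9.97 CPM in Nf2 mice and from 2.04 through 3.77 to 4.25 CPM in DKO mice. For these 3 genes the Nf2 mice reached both above and, apart from Hoxd10, below the DKO mice.

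The widest spread was seen in paralog 11, whose genes were chosen for naming after their values were seen, apart from Hoxa11. Hoxd11 ran from 0.513 through 2.05 to 4.22 CPM in Nf2 mice and from 0.237 through 2.49 to 3.72 CPM in DKO mice, a 17.8-fold range over 5 to 114 reads. Hoxc11 ran from 0.660 through 1.96 to 3.62 CPM in Nf2 mice and from 0.518 through 1.38 to 2.21 CPM in DKO mice, a 6.98-fold range. Both genes ranged well beyond counting error, since the coefficient of variation of Hoxd11 over the 12 mice was 53.1% and counting alone would give 12.6%. Hoxa11 had 1 to 18 reads, so that its 15.8-fold range rests on few reads.

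The spread between mice grew with paralog number. The median ratio of the highest to the lowest mouse was 1.67 for the tested paralogs 1 to 3, 1.84 for paralogs 4 and 5, 2.03 for paralogs 6 to 8, 2.82 for paralog 9 and 5.94 for paralogs 10 and 11. Low counts alone widen such a ratio, so the biological coefficient of variation that edgeR estimates within the genotypes was set beside that of all genes of similar level. For Hoxd11 it was 59.7%, 1.90 times that of genes at its level, for Hoxc11 53.7% and 1.64 times, and for Hoxd10 44.2% and 1.64 times. It exceeded the level-matched value in 5 of the 6 tested genes of paralogs 10 and 11 and in 3 of 4 of paralog 9, in 3 of 8 of paralogs 6 to 8, with Hoxb8 at 1.69 times, and in 1 of 7 in each of the 2 most rostral classes. Over all 18295 tested genes 24.9% exceeded it. Hoxa11 was the exception among the caudal genes, at 0.754 times, and in HoxD, Hoxd8 and Hoxd9 stayed at 0.681 and 0.664 times, next to Hoxd10. The edgeR value pools the genotypes. For paralog 10 the spread lay mostly in the Nf2 mice, with SDs in Nf2 and DKO mice of 6.50 and 1.14 CPM for Hoxa10. They were 2.31 and 0.756 CPM for Hoxc10, and 3.30 and 0.853 CPM for Hoxd10. For Hoxd11 they were 1.31 and 1.21 CPM, for Hoxc11 1.29 and 0.689 CPM, and for Hoxa11 0.126 and 0.145 CPM. Hoxb8 had the larger SD in DKO mice, 8.77 against 4.72 CPM.

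**Figure D2:**
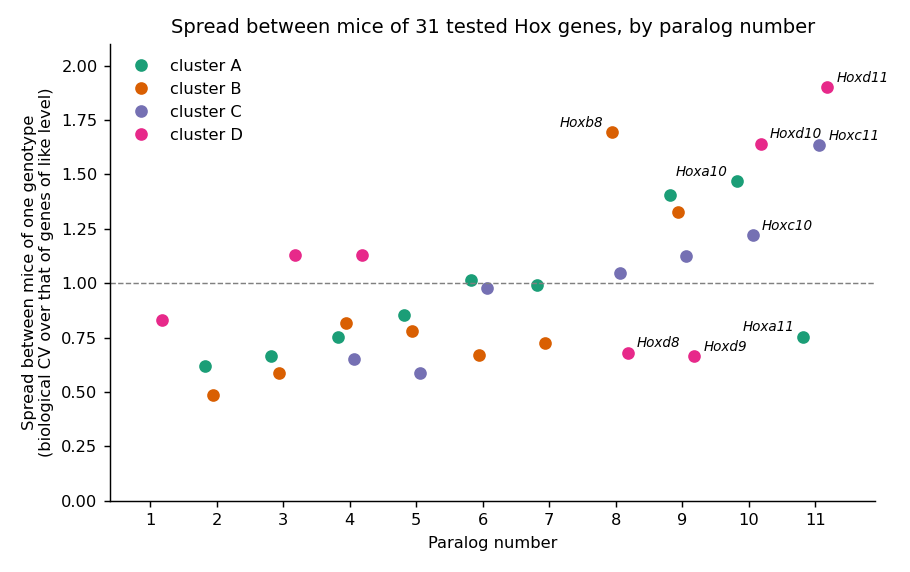
Biological coefficient of variation between mice of a genotype for 31 of the 32 tested Hox genes, divided by that of genes of like level (y axis, dashed line at 1), against paralog number (x axis); colours are clusters. Hoxd11 lies highest at 1.90, Hoxb8 is the highest below paralog 9 at 1.69, and Hoxa11, Hoxd9 and Hoxd8 lie below the line.

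The same mice were high in most of the caudal genes. Mouse 1049 was among the highest 3 of the 12 mice in 6 of the 6 tested genes of paralogs 10 and 11, and mice 649 and 918 in 5 each. All 3 were Nf2 mice. The DKO mouse 887 was among the lowest 3 in 4 of these genes, and the Nf2 mice 884 and 1048 in 3 each. For paralogs 1 to 9 the order was different, with DKO mouse 917 among the highest 3 in 18 of 26 genes and the Nf2 mouse 918 among the lowest 3 in 17. Mouse 918 was thus high in caudal genes and low in most others. Hotair, a noncoding RNA that lies between Hoxc11 and Hoxc12, was also highest in mice 918 (1.32 CPM), 1049 (1.12 CPM) and 649 (0.809 CPM), at no more than 39 reads.

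As a readout of segmental level, the share of all Hox counts that fell to paralogs 9 to 13 was computed for each mouse. In Nf2 mice it was 33.2% in mouse 649, 32.1% in mouse 918, 28.8% in mouse 1049, 24.8% in mouse 1048, 23.7% in mouse 702 and 18.5% in mouse 884. In DKO mice it was 26.0% in mouse 914, 25.7% in mouse 915, 25.6% in mouse 917, 23.8% in mouse 886, 23.8% in mouse 885 and 23.1% in mouse 887. The Nf2 mice extended beyond the DKO mice on both sides, and the 6 DKO mice lay within 2.87 percentage points of each other. The means were 26.9% ± 5.57 (SD, n = 6) in Nf2 and 24.7% ± 1.24 (SD, n = 6) in DKO mice, a difference well within the spread of the Nf2 mice. Restricted to paralogs 10 to 13, the share was 10.8% ± 3.65 in Nf2 and 8.67% ± 0.990 in DKO mice (SD, n = 6 each). At the rostral end of the code the genotypes were close, with paralogs 1 to 3 at 18.5% ± 2.01 in Nf2 and 18.3% ± 2.19 in DKO mice.

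**Figure D3:**
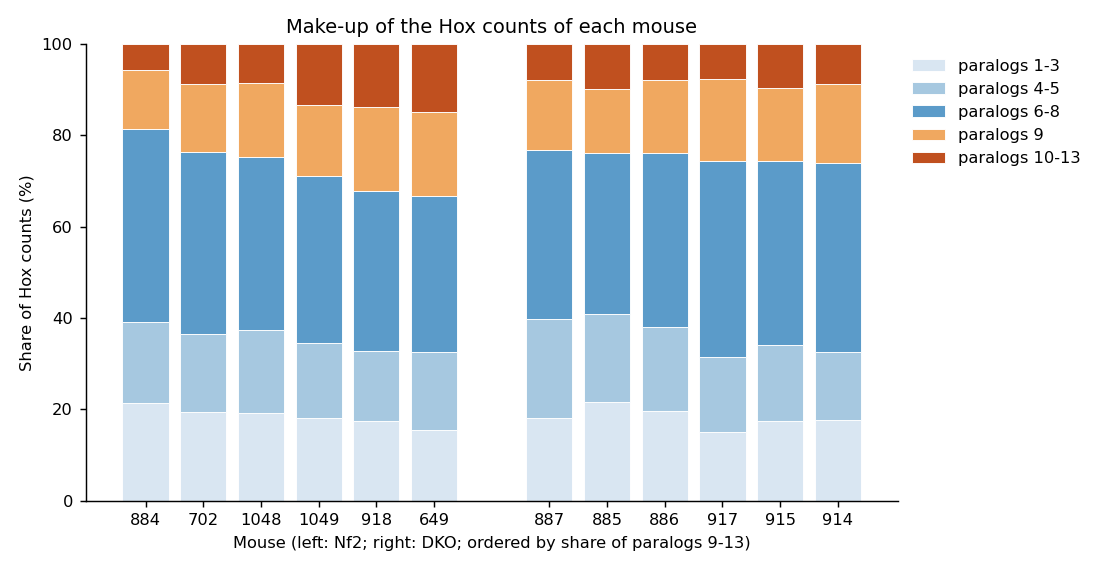
Share of each mouse's Hox counts (percent, y axis) that fell to paralogs 1 to 3, 4 and 5, 6 to 8, 9 and 10 to 13, stacked; the left 6 bars are Nf2 mice and the right 6 DKO mice, each ordered by the share of paralogs 9 to 13. The orange and red part grows from 18.5% in mouse 884 to 33.2% in mouse 649 among the Nf2 mice and stays between 23.1% and 26.0% in the DKO mice.

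The log2 ratio of summed counts of paralogs 9 to 13 over paralogs 4 to 8 gave the same picture without the most rostral genes. It ran from −1.70 in mouse 884 to −0.63 in mouse 649 in Nf2 mice (mean −1.05 ± 0.41, SD, n = 6) and from −1.35 in mouse 887 to −1.12 in mouse 914 in DKO mice (mean −1.21 ± 0.08, SD, n = 6). The difference of the means was −0.16, and it lay between −0.08 without mouse 649 and −0.29 without mouse 884. Neither measure was tested between genotypes. The segmental level of the ganglia is not in the labels, so level and genotype cannot be told apart in a difference of caudal genes. Beside these shares, the summed muscle and spinal cord markers were 169 and 4.51 CPM in mouse 649, 1030 and 5.65 CPM in mouse 918, 828 and 24.0 CPM in mouse 1049, and 745 and 18.4 CPM in mouse 884, whose caudal share was the lowest. Their part in the caudal share was not tested.

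The comparison of DKO with Nf2 mice asked whether the loss of Fak in the Cre-expressing cells went with a change in any Hox gene. By edgeR's quasi-likelihood test with Benjamini-Hochberg adjustment over all 18295 tested genes, 0 of the 32 tested Hox genes passed an adjusted p of 0.05, where 0.94% of all genes did (172 genes, 0.372% higher and 0.568% lower in DKO mice). At an unadjusted p under 0.05 there were 3 Hox genes, 9.38% of those tested against 14.9% of all genes. DESeq2 and limma voom also called 0 of 32, with 5 and 4 at an unadjusted p under 0.05. No Hox gene separated the genotypes without overlap, against 1.95% of all genes. By estimate 20 were higher and 12 lower in DKO mice, with a median log2 fold change of 0.07, against 0.005 over all genes.

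**Figure D4:**
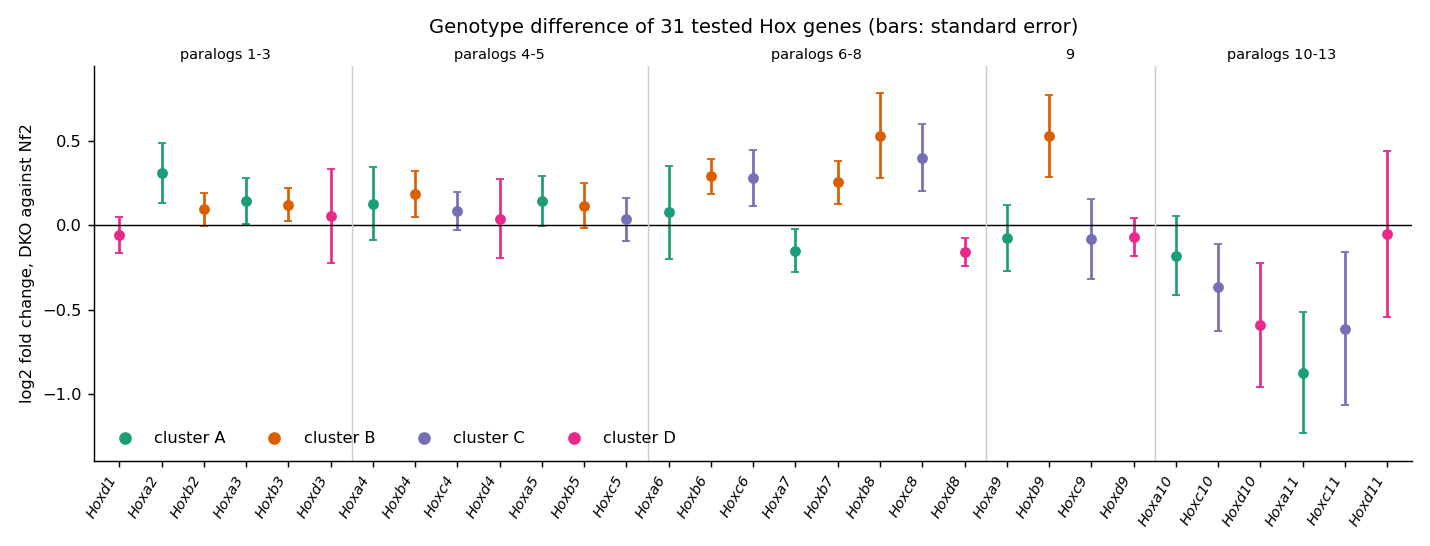
Log2 fold change of DKO against Nf2 mice (y axis) with its standard error (bars) for 31 of the 32 tested Hox genes by paralog number; colours are clusters. The HoxB genes lie above 0, from 0.10 to 0.53, the 6 genes of paralogs 10 and 11 lie below 0, from −0.87 to −0.05, and none passes the adjusted threshold.

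The 3 smallest p-values among the genes with a higher estimate all belonged to HoxB. Hoxb6, a trunk gene, had a log2 fold change of 0.29 ± 0.11 (SE), with 8.79 to 11.8 CPM in Nf2 mice and 10.5 to 16.3 CPM in DKO mice, and its edgeR adjusted p was 0.207. Hoxb9 had 0.53 ± 0.24 (adjusted p = 0.325 by edgeR) and Hoxb8 0.53 ± 0.25 (adjusted p = 0.344 by edgeR). Each of these 3 genes overlapped between genotypes. Hoxb9 had −0.13 in mice labelled female, 1.06 in mice labelled male and 0.82 with the muscle level as a covariate (edgeR adjusted p = 0.945, 0.297 and 0.176), and Hoxb8 had 0.25 in mice labelled female (edgeR adjusted p = 0.899). All 8 tested HoxB genes had estimates above 0, with a median of 0.22, whereas HoxA split 6 to 4, HoxC 4 to 3 and HoxD 2 to 5.

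The 3 smallest p-values among the lower estimates were those of Hoxa11, Hoxd8 and Hoxd10. Hoxa11 had 0.338 to 0.673 CPM (median 0.495) in Nf2 mice and 0.043 to 0.432 CPM (median 0.250) in DKO mice, with a log2 fold change of −0.87 ± 0.36 (SE) and an edgeR adjusted p of 0.267. It shares 35.0% of its exon bases with Hoxa11os, and its 1 to 18 reads a mouse limit what this depth can show. Hoxd8 had −0.16 ± 0.08 (edgeR adjusted p = 0.412) and Hoxd10 −0.59 ± 0.37 (edgeR adjusted p = 0.494). The 6 tested genes of paralogs 10 and 11 were lower by estimate in DKO mice, with a median of −0.48, and the 8 genes of paralogs 6 to 8 had a median of 0.27. Paralogs 1 to 3 had a median of 0.10, paralogs 4 and 5 of 0.12 and paralog 9 of −0.07. The genes of a cluster share regulation and the mice, so they are not independent. Without mouse 649, which had the highest caudal share of Hox counts among the Nf2 mice, Hoxd10 had −0.29 (edgeR adjusted p = 0.762).

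The 5 mice with the most spinal cord neuron marker RNA were the 5 highest in Hoxb8, and the order was looser for Hoxb9. DKO mouse 917 had 36.1 CPM of these markers, 38.2 CPM of Hoxb8 and 18.3 CPM of Hoxb9, each the highest of the 12 mice. DKO mice 914 and 915 followed in Hoxb8 (23.4 and 24.0 CPM) with marker sums of 15.4 and 16.7 CPM, and the Nf2 mice 884 and 1049, with sums of 18.4 and 24.0 CPM, had the 2 highest Hoxb8 levels of their genotype (21.5 and 18.7 CPM). For Hoxb9, mouse 886 reached 10.5 CPM with a marker sum of 7.92 CPM, above mice 1049 (9.46 CPM) and 884 (8.30 CPM). Among the markers, Slc6a5, the glycine transporter of inhibitory cord neurons, reached 19.6 CPM in mouse 917 and 0.24 CPM in its lowest mouse, and Slc32a1 reached 8.03 CPM. Pax2 and Lhx5 were also highest in mouse 917. The rest of the list did not follow. Slc5a7 was highest in Nf2 mouse 918, at 2.70 CPM against 2.33 CPM in mouse 917. Chat and Mnx1 were highest in mouse 918 as well, and Slc18a3 in mouse 1049. The oligodendrocyte markers Mobp (137 CPM), Mog, Opalin, Olig1 and Olig2 were also highest in mouse 917. Mag, of the same list, was highest in mouse 914, at 129 CPM against 104 CPM in mouse 917. Mobp did not follow the cord marker sums in every mouse, with 76.7 CPM in mouse 886 and 53.7 CPM in mouse 884. With the marker level as a covariate, an alternative chosen after seeing the data, the log2 fold changes were 0.36 for Hoxb8 (edgeR adjusted p = 0.280) and 0.33 for Hoxb9 (edgeR adjusted p = 0.292), and without mouse 917 both were 0.32 (edgeR adjusted p = 0.637 and 0.609). Hoxd10 showed no such order, with 2.89 CPM in mouse 917 and 9.97 CPM in mouse 649. What part spinal cord tissue had in the Hoxb8 and Hoxb9 levels was not tested beyond this covariate.

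**Figure D5:**
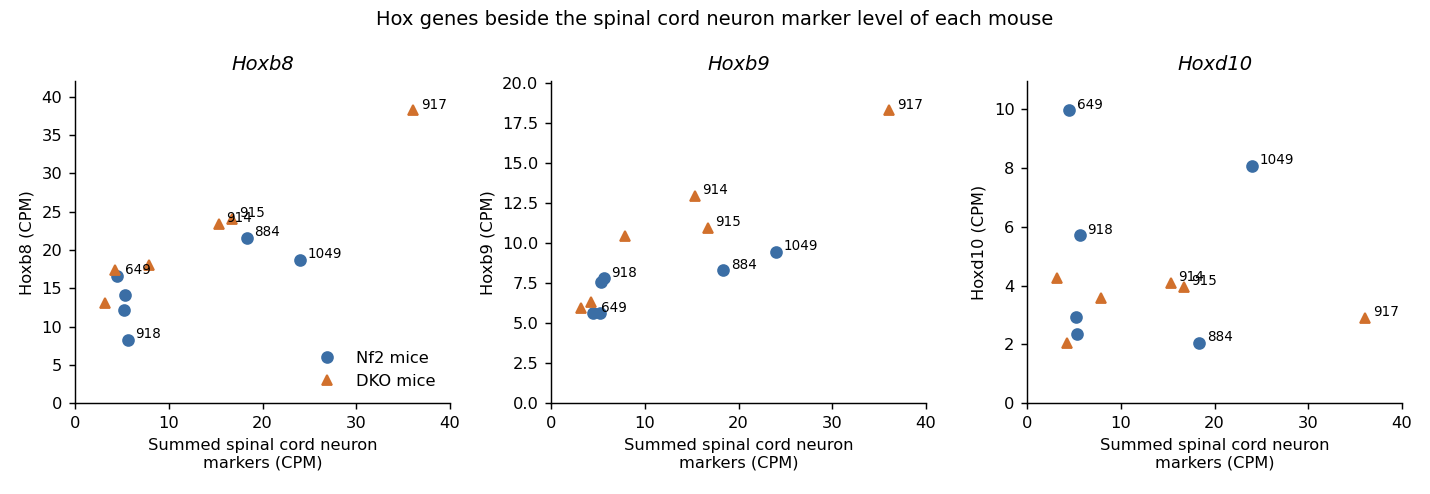
CPM of Hoxb8, Hoxb9 and Hoxd10 (y axes, from 0) against the summed CPM of 8 spinal cord neuron markers (x axes) in each mouse; circles are Nf2 and triangles DKO mice, and numbers name mice. Mouse 917 lies at the upper right for Hoxb8 (38.2 CPM) and Hoxb9 (18.3 CPM), and for Hoxd10 the highest mouse is 649, at 9.97 CPM, with few cord markers.

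The dependence of the genotype difference on labelled sex was tested as an interaction. No Hox gene passed the adjusted threshold by edgeR (0 of 32, against 0.0109% or 2 of all genes), with 2 at an unadjusted p under 0.05 by edgeR, against 4.78% of all genes, and also 2 by DESeq2. These were Hoxb9, whose estimate was 1.18 ± 0.36 larger on the log2 scale in mice labelled male (edgeR adjusted p = 0.920), and Hoxa6, with 1.19 ± 0.48 (edgeR adjusted p = 0.920). Leaving out each mouse in turn, mouse 702 included, also gave 0 of 32. The 3 DKO mice with the highest cord marker sums and the highest Hoxb9 were the 3 labelled male. Among the Nf2 mice, the highest sum (24.0 CPM) and the highest Hoxb9 (9.46 CPM) were those of mouse 1049, labelled female. Whether cord tissue had a part in the dependence on sex was not tested.

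Genes that act with or on Hox genes did not pass the threshold either. All 9 Hox cofactors (Pbx, Meis and Pknox proteins, which bind DNA beside Hox proteins) were tested and 0 passed, with a median log2 fold change of 0.10. Pbx2, the cofactor of highest level, had 0.02, and Meis2 had the lowest adjusted p of the list (0.34, edgeR adjusted p = 0.126). Of the 21 genes of the Polycomb and Trithorax groups, which keep Hox genes silent or active, 0 of 21 passed, with a median of 0.004, and the lowest adjusted p belonged to Kmt2a, the MLL1 methyltransferase (0.22, edgeR adjusted p = 0.0738). Of the 9 axial inputs, which are the Cdx factors, the retinoic acid receptors and the Gdf11 pathway, 6 were tested and 0 passed, with a median of −0.18. At an unadjusted p under 0.05 there were 3 of the 6, all with lower estimates in DKO mice, against 14.9% of all genes. These were Rarb, a retinoic acid receptor whose gene itself responds to retinoic acid (−0.45, edgeR adjusted p = 0.141), the receptor gene Tgfbr1 (−0.30, edgeR adjusted p = 0.262) and Rara (−0.22, edgeR adjusted p = 0.285). The genes Cdx1, Cdx2 and Cdx4 had at most 8 reads in a mouse. Of the genes beside the clusters 9 were tested, and of the noncoding RNAs within them 10, with 0 past the threshold in each list, and medians of −0.05 and 0.03. At an unadjusted edgeR p under 0.05 there were 1 of 9 cofactors and 3 of 21 Polycomb and Trithorax genes. The genes beside the clusters had 1 of 9 and the noncoding RNAs 0 of 10. All these lists, the axial inputs included, were written with earlier results of these data known. Haglr, in HoxD, had 7.43 CPM in Nf2 and 7.17 CPM in DKO mice on average.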

How the data were processed

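RNA of about 8 flash-frozen DRG per mouse was sequenced for the authors by a commercial provider as poly(A) libraries. The authors deposited raw read counts per Ensembl gene and mouse, not normalized. The submitters' processing notes name Trimmomatic 0.36, STAR 2.5.2b, featureCounts, Subread 1.5.2 and GRCm38. The strand setting and the treatment of reads with several matches are not given in the sources used here. Of 49315 gene identifiers, 49056 were found in GENCODE M21 (GRCm38), which gave positions and exon lengths. Totals were 21129191 to 41250329 counts, and over 66 library pairs the counts differed beyond sampling noise (chi-square per degree of freedom 9.48 to 78.1).

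The genotypes were compared with edgeR 4.0.16 in R 4.3.3 (filterByExpr by genotype, 18295 genes kept, TMM scaling, quasi-likelihood F test on all 12 mice), with DESeq2 1.42.0 and limma 3.58.1 as alternatives and p-values adjusted by the Benjamini-Hochberg method over all tested genes. CPM used library totals. Summaries and plots used Python 3.11.15 (matplotlib 3.10.9, numpy 2.4.6, pandas 2.3.3). The fits were tested on simulated data. The labels name each mouse, so the spread is that between mice. Values are given by a rule for the 3 genes of highest mean CPM per paralog class, for the 3 smallest p-values in each direction and, in the other lists, for the highest levels and smallest p-values. The Hox genes, the gene lists and the tests were chosen with earlier results of these data known. Alternatives were other scaling, filters, tests, covariates and subsets of mice. One tested Hox gene and a cofactor gene enter counts and medians but are not reported here by name.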

Additional observations from a re-analysis of the deposited data

Results flagged for a closer look

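In the groups of 6 mice, the highest or lowest mouse stood apart from the others by Dixon's test at its 95% critical value in 4 of 70 groups examined, where chance gives about 3.5. Hoxd3 stood apart in both genotypes, at 5.49 CPM in Nf2 mouse 649 (next highest 3.01 CPM) and at 4.92 CPM in DKO mouse 887 (next highest 3.24 CPM). Hoxd4, its neighbour, was at 8.47 CPM in the same DKO mouse 887 (next highest 5.70 CPM). Hoxd3 and Hoxd4 share 9.3% and 13.2% of their exon bases with each other, and most of their overlap is with other annotated genes (Gm28230 and Hoxd3os1, and for Hoxd3 also Haglr). Hoxc5, a gene of neck and forelimb levels, was lowest in Nf2 mouse 884 at 3.45 CPM (next lowest 4.26 CPM).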

How the results depend on the processing

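No paired analysis was possible because the mice of the 2 genotypes share no replicate number. The count of 0 Hox genes past the threshold was the same in all 26 alternatives to the genotype comparison, with 1 to 7 at an unadjusted p under 0.05, and in all 13 for the dependence on sex. Over all genes, the 172 calls became 845 with DESeq2, 521 with limma voom, 78 with the muscle level and 101 with the Hox ratio of each mouse as a covariate, 57 in mice labelled female, 2 in mice labelled male and 9 in those without mouse 702. Leaving out 1 mouse gave 81 to 217 calls. The 2 calls for the dependence on sex became 20 with DESeq2 and 2 to 6 with 1 mouse left out. Of the 6 genes compared by fold change, Hoxb9 turned to −0.13 in mice labelled female, and the other 5 kept their direction in the 26 alternatives. Hoxd10 had −0.14 with limma voom and −0.05 with the Hox ratio as a covariate, which contains Hoxd10 itself. The difference in the log2 ratio was −0.31 with paralogs 10 to 13, −0.20 per kb, −0.24 with each gene counted equally and −0.23 without Hoxa9 and Hoxa7, and it was −0.08 without mouse 649 or mouse 918. The difference in caudal share, −2.20 percentage points, was −0.94 without mouse 649, −1.15 without mouse 918 and −3.87 without mouse 884. Counting each gene equally gives no share. DESeq2 gave Hoxa11 no adjusted p. Causes were not tested. Depth limits Hoxa11 and paralogs 12 and 13.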
